A study of Mus musculus with 18 samples.

Results

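The urea cycle and amino acid catabolism genes examined here are 40 named genes of nitrogen disposal, of the breakdown of single amino acids and of the methionine and creatine branches that draw on them. They were picked by gene symbol, out of 22180 genes that the array names through a probe set with 1 symbol, and a gene with several such probe sets was represented by the one of highest mean. Of the 40, 37 had a probe set (Gls2, Sds and Sdsl were not analysed here). All 37 were tested in liver. In small intestine 27 were tested, and 10 lay below the level filter.

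The samples were livers and small intestines of C57BL\6 mice (so spelled in the labels) that were reared germ-free, without any microbes, and colonised at 5 to 6 weeks of age. OMT recipients were given the gut microbiota of donors about 24 months old, YMT recipients that of young donors, whose age the labels give as 4 weeks in one place and as 5 to 6 weeks in another. Tissues were taken 8 weeks after the transfer, at an age given as 12 or 13 weeks. Each tissue had 5 OMT and 4 YMT arrays, 1 array per recipient sample, and no group was left germ-free, so both groups carry a transferred microbiota and differ in the age of its donor. How many donors or cages lie behind a group is not given in the sources used here. Effects of a single donor or cage and of donor age therefore cannot be told apart, and the p-values measure only the spread among these samples.

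Amino acids that are broken down give up their nitrogen as ammonia or by transamination to glutamate. In periportal hepatocytes the mitochondrial enzymes Cps1 and Otc, with the cofactor made by Nags, feed this nitrogen into citrulline, and Ass1, Asl and Arg1 complete the cycle in the cytosol and release urea. Ammonia that escapes is captured by glutamine synthetase (Glul) in the hepatocytes around the central vein. The small intestine holds the first steps, Cps1 and Otc, and makes citrulline from glutamine for other tissues.

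Levels are given on the log2 scale of the arrays, as mean ± SD for a group, and a difference is the OMT mean minus the YMT mean ± its standard error (SE). Differences were tested with limma, the p-values were adjusted by Benjamini and Hochberg's method over every gene tested in the tissue, and a gene was called higher or lower at an adjusted p under 0.05. Array medians were 4.12 to 4.22 in liver and 4.39 to 4.51 in intestine, and probe sets near them give compressed differences. Levels are not compared between genes, because each probe set has its own response. The arrays give no counts, so their number limits the precision.

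The tissue labels held for the marker lists. The log2 of the summed hepatocyte markers was 14.98 to 15.05 on the liver arrays, with 14.99 to 15.02 in OMT, and 11.65 to 12.09 on the intestine arrays. The enterocyte markers summed to 15.23 to 15.67 in intestine. Of all genes tested, 8.78% were lower and 10.4% higher in OMT liver, and 3.1% were lower and 1.04% higher in OMT intestine. In liver, endothelial markers were lower in OMT without overlap (9.39 to 9.76 against 9.95 to 10.24, with 4 of 6 genes lower). Of 6 fibroblast and stellate cell genes 4 were also lower, with overlapping sums (9.77 to 10.04 over both groups), and of 6 smooth muscle genes 2 were lower (7.44 to 7.68 against 7.68 to 8.17). Of 8 macrophage genes 2 were lower and 1 was higher (9.86 to 10.12 against 9.98 to 10.25). The enterocyte list summed to 11.61 to 12.64 in OMT liver and 10.91 to 11.03 in YMT liver; it holds Apoa4, which the liver also expresses. In intestine, T and NK cell markers (9.95 to 10.61 against 10.65 to 11.39; 2 of 9 lower) and goblet cell markers (13.82 to 14.30 against 14.41 to 14.62; 1 of 6 lower) were lower in OMT without overlap, and the sums of the cholangiocyte list were 11.99 to 12.16 against 12.19 to 12.54. The part of these shifts in the results below was not tested. In whole tissue, fewer cells of a type and less RNA per cell cannot be told apart. The sums are of linear levels, so the genes of highest level weigh most. Dcn, which did not pass (9.47 in OMT, 9.32 in YMT), stood highest among the fibroblast and stellate cell genes in liver. Gzma, called lower (8.76 in OMT, 9.72 in YMT), stood highest among the T and NK cell genes in intestine.

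Promoter windows, 250 bases before to 50 after the gene start, were available from RefSeq (assembly GRCm38.p6) for 30 of the 40 genes. They are shown for Nags and Ahcy, which rose in OMT liver, and for Otc, Hgd and Gamt, which fell, as examples of how different the start regions of genes called in the same tissue were. Capitals mark the searched motifs on either strand. The Nags window is chr11:102145263-102145562 on the plus strand, the Ahcy window chr2:155074448-155074747 on the minus strand, the Otc window chrX:10252055-10252354 on the plus strand, the Hgd window chr16:37579903-37580202 on the plus strand and the Gamt window chr10:80260963-80261262 on the minus strand.
Nags: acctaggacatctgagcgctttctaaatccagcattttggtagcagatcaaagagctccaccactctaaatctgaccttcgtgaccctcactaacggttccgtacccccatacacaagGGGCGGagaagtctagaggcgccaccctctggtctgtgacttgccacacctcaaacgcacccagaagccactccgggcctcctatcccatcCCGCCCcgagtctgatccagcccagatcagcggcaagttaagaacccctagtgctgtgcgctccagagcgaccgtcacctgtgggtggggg
Ahcy: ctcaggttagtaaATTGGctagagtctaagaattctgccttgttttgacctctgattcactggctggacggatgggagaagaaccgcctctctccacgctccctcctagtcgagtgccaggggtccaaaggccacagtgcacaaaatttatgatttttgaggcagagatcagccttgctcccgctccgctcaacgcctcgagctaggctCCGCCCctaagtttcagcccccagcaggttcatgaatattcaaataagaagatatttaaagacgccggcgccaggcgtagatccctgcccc
Otc: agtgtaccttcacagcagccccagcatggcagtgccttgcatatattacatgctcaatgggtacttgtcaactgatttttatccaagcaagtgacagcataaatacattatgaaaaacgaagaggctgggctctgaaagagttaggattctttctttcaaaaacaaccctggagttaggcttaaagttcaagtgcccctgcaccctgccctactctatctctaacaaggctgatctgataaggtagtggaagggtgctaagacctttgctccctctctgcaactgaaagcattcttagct
Hgd: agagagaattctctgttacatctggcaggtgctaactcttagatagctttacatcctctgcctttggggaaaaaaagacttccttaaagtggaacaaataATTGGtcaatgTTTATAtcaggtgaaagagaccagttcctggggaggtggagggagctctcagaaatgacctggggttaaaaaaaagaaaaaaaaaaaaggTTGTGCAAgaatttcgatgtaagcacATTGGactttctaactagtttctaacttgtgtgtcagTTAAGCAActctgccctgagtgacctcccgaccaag
Gamt: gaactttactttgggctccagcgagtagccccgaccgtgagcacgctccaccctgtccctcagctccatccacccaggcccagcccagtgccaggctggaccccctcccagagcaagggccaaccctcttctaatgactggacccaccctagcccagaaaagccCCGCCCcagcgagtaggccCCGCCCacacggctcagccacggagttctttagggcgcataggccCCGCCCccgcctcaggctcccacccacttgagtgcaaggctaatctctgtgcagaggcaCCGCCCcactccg

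The Gamt window was the richest in G and C of these, at 66.0%, and held 14 CG pairs and 4 GC boxes (GGGCGG), 3 of them before the gene start at 86, 67 and 22 bases. The Nags window had 57.7% and 14 CG pairs, with GC boxes at 132 and 41 bases before the start, and the Ahcy window 52.7% and 13 CG pairs, with a GC box at 41 bases and a CCAAT box (CCAAT) at 237 bases. So a GC box stood before a gene that rose and before one that fell. The Otc window (44.3%, 1 CG pair) held none of the motifs searched. The Hgd window (41.0%, 2 CG pairs) held a TATA box (TATAAA) at 139 bases, CCAAT boxes at 150 and 23 bases, and letters matching a C/EBP site (TTGCNNAA) at 49 bases before and 14 bases after the start.

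Over the 31 windows of the 30 genes (Slc25a15 has 2), a CCAAT box was in 16, against 37.4% of all 32851 windows of the same length, and a GC box in 15, against 35.7%; the GC box was added after the sequences had been looked at. A TATA box was in 4 windows (Got2, Hal, Hgd and Tdo2; 13.6% of all). A C/EBP match was in 2 (Hal and Hgd; 10.8% of all), and a glucocorticoid receptor motif (AGAACA) in 3 (Agxt, Haao and Kmo; 19.0% of all). A cAMP response element (TGACGTCA, 1.79% of all) and an HNF4A motif (CAAAGTCCA, 0.475% of all) were in 0. Both strands were searched, none of the matches marked above overlaps another, and a match describes letters and not a bound site.

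In liver, the genes moved in both directions: 11 of the 37 were higher in OMT recipients, 7 were lower and 19 did not pass. Of all 13380 genes tested in liver, 10.4% were higher and 8.78% lower. The median difference was 0.10 for the 37 genes and -0.0050 for all genes tested. The largest rise was that of the cysteine-making enzyme Cth, 2.23-fold, and the largest fall that of the creatine-making enzyme Gamt, 3.27-fold. The share of higher genes depends on the scaling: over all genes 1388 were higher and 1175 lower, but 1156 and 1492 after quantile normalization within the tissue. The members' counts were then 9 higher and 7 lower, and 7 and 7 after centring each array on its median.

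Calls differed in how firmly they held. Under each of the alternatives that tested them, 6 of the 11 rises held (Nags, Asl, Gpt, Mat1a, Ahcy and Cth), as did 6 of the 7 falls (Otc, Hgd, Kynu, Haao, Gatm and Gamt), of which Gatm entered the test mainly through its YMT level. The rises of Gldc, Glud1, Gnmt, Got2 and Gpt2 and the fall of Glul were lost under some. Liver OMT replicates 1 and 2 stood apart for other genes in earlier results on these data. Values without both are given where they change a call, and for Asl.

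**Figure D1:**
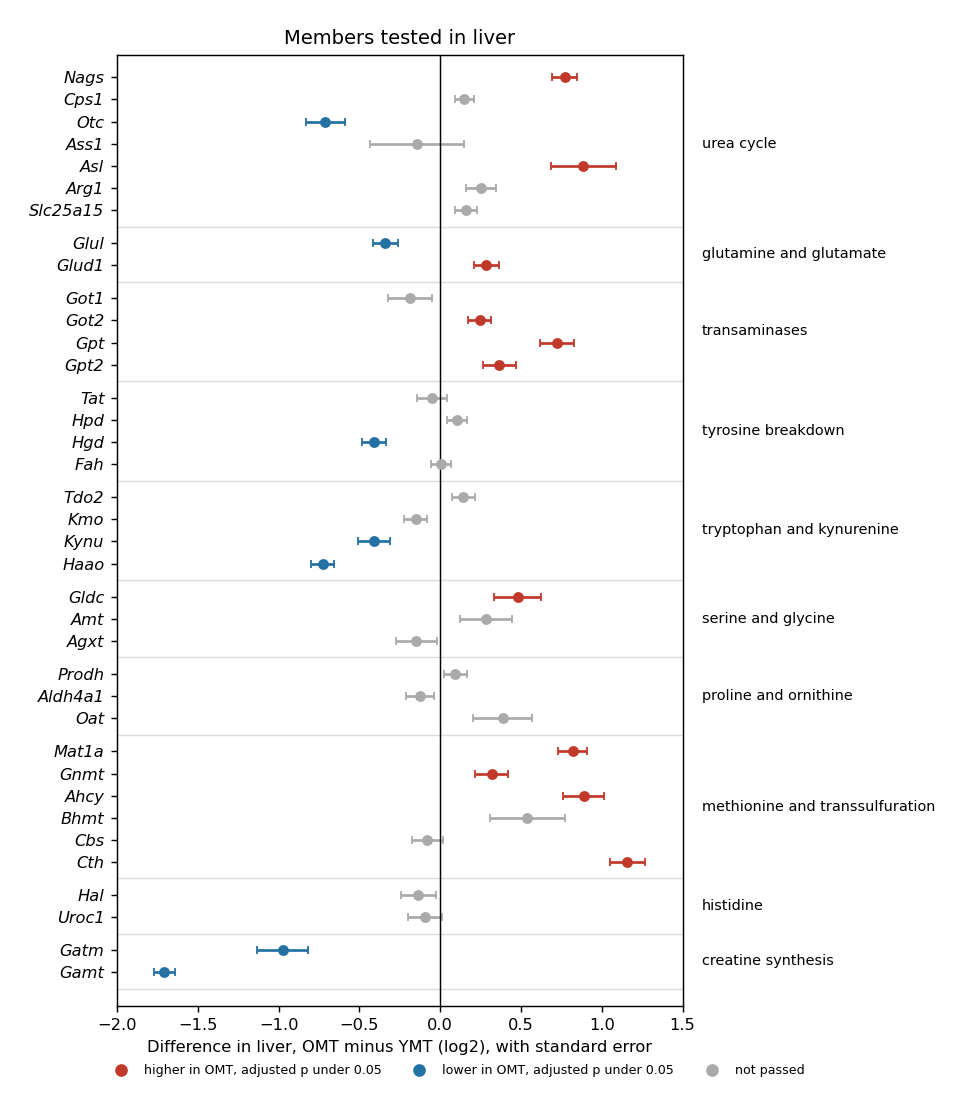
Differences in liver between OMT and YMT recipients for the 37 genes tested, grouped by role; points are log2 differences (OMT minus YMT, 5 against 4 arrays) and bars their standard errors. Red marks the 11 genes higher and blue the 7 lower at an adjusted p under 0.05, with Gamt farthest to the left and Cth farthest to the right.

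The urea cycle did not move as a unit in liver. Of its 7 genes, Nags and Asl were higher, Otc was lower and 4 did not pass (median 0.16). Nags makes N-acetylglutamate, the cofactor without which Cps1 is inactive. Its levels in OMT were 8.88, 8.96, 9.14, 8.86 and 8.85, and in YMT 8.15, 8.10, 8.18 and 8.24. Every OMT array lay above every YMT array, with means of 8.94 ± 0.12 and 8.17 ± 0.059, a difference of 0.77 ± 0.077 (1.71-fold higher, adjusted p = 0.000102). A second probe set for Nags differed by 0.70.

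Otc, the mitochondrial enzyme that joins ornithine and carbamoyl phosphate to citrulline, moved the other way. It measured 10.20, 10.38, 10.06, 10.26 and 9.77 in OMT and 10.85, 10.84, 11.01 and 10.68 in YMT. The groups did not overlap, and the difference was -0.71 ± 0.12 (1.64-fold lower, adjusted p = 0.00237).

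Asl, which splits argininosuccinate into arginine and fumarate, measured 10.61, 10.44, 11.44, 11.34 and 11.20 in OMT and 9.92, 10.22, 10.04 and 10.30 in YMT. OMT replicates 1 and 2 lay close to the YMT range and the other OMT arrays well above it. The difference was 0.89 ± 0.20 (1.85-fold higher, adjusted p = 0.0115), and 1.21 without those 2 arrays (adjusted p = 0.000203). Leaving out the lowest 2 OMT arrays was bound to raise the difference.

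Arg1, the arginase that releases urea, was also lowest among the OMT arrays on replicates 1 and 2. It measured 11.53, 11.51, 11.70, 11.93 and 11.69 in OMT, against 11.33, 11.48, 11.36 and 11.51 in YMT. The groups touched at 11.51, and the difference of 0.25 ± 0.094 did not pass (adjusted p = 0.0853). It was 0.35 without OMT replicates 1 and 2, which passed (adjusted p = 0.0304). These were the lowest 2 OMT arrays, so leaving them out was bound to raise the difference, and the pass is no independent support.

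Cps1, the entry enzyme of the cycle, showed a small shift with no overlap. It measured 12.40, 12.40, 12.47, 12.48 and 12.39 in OMT and 12.32, 12.28, 12.29 and 12.22 in YMT, a difference of 0.15 ± 0.060 that did not pass (adjusted p = 0.104). The ornithine carrier Slc25a15, which returns ornithine to the mitochondrion, measured 9.99, 10.03, 10.20, 10.15 and 10.15 in OMT and 9.99, 9.98, 9.90 and 9.90 in YMT. Its difference was 0.16 ± 0.068 and did not pass (adjusted p = 0.127).

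For Ass1, which condenses citrulline with aspartate, the probe set lay little above the array medians and varied most of all the genes within each group. It measured 6.12, 5.95, 5.33, 4.65 and 5.34 in OMT and 5.68, 5.73, 5.01 and 6.07 in YMT. The ranges overlapped widely, and the difference of -0.14 ± 0.29 did not pass (adjusted p = 0.774).

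**Figure D2:**
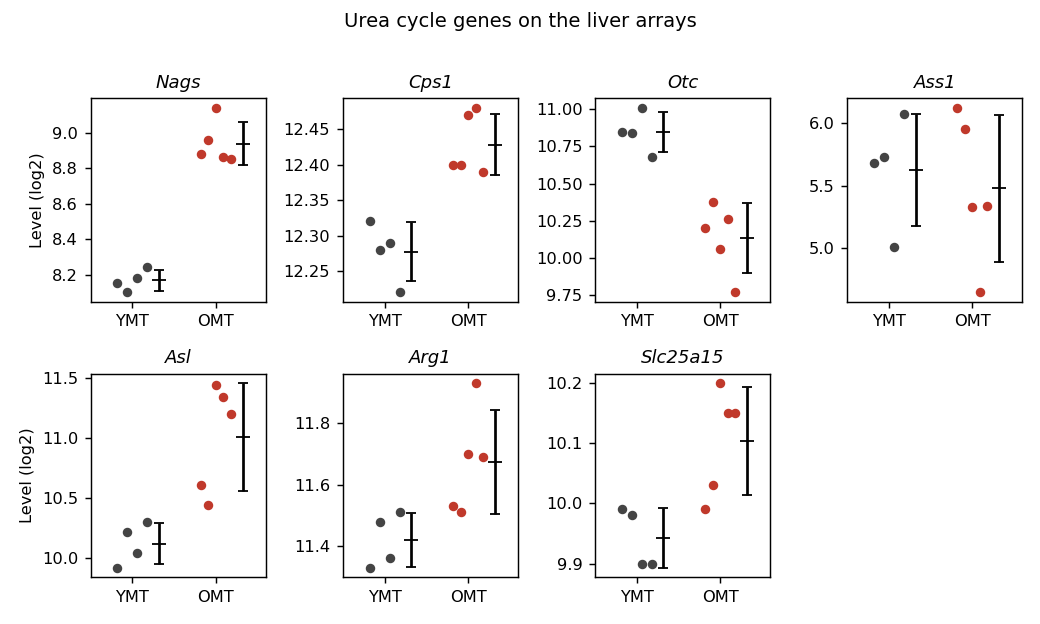
Levels of the 7 urea cycle genes on each liver array (log2; axes differ between panels and do not start at 0); points are the 4 YMT and 5 OMT arrays in replicate order, and the bar is the mean with its SD. Nags and Asl lie higher in OMT and Otc lower with no overlap, Cps1 is separated by a small gap, and Ass1 overlaps.

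Glutamate stands between transamination and the cycle. Glul, the glutamine synthetase of pericentral hepatocytes, was lower in OMT liver (10.77 ± 0.13 against 11.11 ± 0.048, a difference of -0.34 ± 0.079, adjusted p = 0.0133). Its groups did not overlap, and its second probe set differed by -0.72. The call was lost in a fit of both tissues together (adjusted p = 0.184). It was also lost without OMT replicates 1 and 2, with a difference of -0.26 (adjusted p = 0.0588). Glud1, which releases ammonia from glutamate, was higher (11.33 ± 0.065 against 11.04 ± 0.14, 0.29 ± 0.079, adjusted p = 0.0279). Its call was lost when OMT replicate 2 or 5 or YMT replicate 1 or 4 was left out, where the difference was 0.24 to 0.28 (adjusted p = 0.0761 at most).

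Of the 4 transaminases, which pass amino groups to and from glutamate, 3 were higher in OMT liver. Gpt, the cytosolic alanine transaminase, measured 9.65, 9.55, 9.73, 9.84 and 9.48 in OMT and 8.66, 8.96, 9.08 and 9.01 in YMT. All OMT arrays were above all YMT arrays, and the difference was 0.72 ± 0.10 (1.65-fold higher, adjusted p = 0.000904). Its mitochondrial relative Gpt2 was higher by 0.37 ± 0.10 (adjusted p = 0.0306) with overlapping groups. Got2, the mitochondrial aspartate transaminase, was higher by 0.24 ± 0.070 (adjusted p = 0.0329), while its second probe set differed by 0.061. Both calls were lost without any 1 of 6 of the 9 arrays. These were OMT replicates 3, 4 and 5 and YMT replicates 1, 2 and 3 for Gpt2 (0.30 to 0.37, adjusted p = 0.082 at most), and OMT replicates 1, 3 and 5 and YMT replicates 2, 3 and 4 for Got2 (0.21 to 0.25, adjusted p = 0.0848 at most). The cytosolic Got1 differed by -0.19 ± 0.13 (adjusted p = 0.371).

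Methionine metabolism held 3 of the 4 largest rises. Of its 6 genes, 4 were higher in OMT liver, and the median difference was 0.68. Mat1a, the liver enzyme that makes the methyl donor S-adenosylmethionine, measured 12.60, 12.62, 12.92, 12.89 and 12.90 in OMT and 12.00, 12.04, 11.91 and 11.91 in YMT. The groups were far apart, with a difference of 0.82 ± 0.089 (1.77-fold higher, adjusted p = 0.000179).

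Ahcy, which clears the S-adenosylhomocysteine that methylation leaves behind, measured 9.77, 9.63, 9.96, 10.07 and 9.90 in OMT and 8.85, 8.91, 9.36 and 8.79 in YMT. It was higher by 0.89 ± 0.13 (1.85-fold, adjusted p = 0.000918), and by 0.65 on its second probe set. Near-identical copies of Ahcy are known in the mouse genome, and whether these probe sets also measure them was not tested, so the Ahcy value is uncertain in that respect. Gnmt, which uses up surplus S-adenosylmethionine by methylating glycine, was higher by 0.32 ± 0.10 (adjusted p = 0.0477). Its groups overlapped through OMT replicate 2, at 11.44. The Gnmt call was lost when any array other than that one was left out (0.25 to 0.33, adjusted p = 0.104 at most).

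The transsulfuration pathway turns homocysteine into cysteine by Cbs and then Cth. Cth measured 11.52, 11.33, 11.52, 11.42 and 11.17 in OMT and 10.17, 10.41, 10.36 and 9.99 in YMT. The gap between the groups was wider than the range within either, and the difference was 1.16 ± 0.11 (2.23-fold higher, adjusted p = 6.71e-05). Cbs, the step before it, differed by -0.080 ± 0.096 (adjusted p = 0.611). Bhmt, which returns homocysteine to methionine, differed by 0.54 ± 0.23 with overlapping groups (adjusted p = 0.131), on a probe set that lay at 5.58 ± 0.50 and 5.04 ± 0.25, little above the array medians.

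Creatine synthesis, which uses arginine, glycine and a methyl group of S-adenosylmethionine, was lower in OMT liver at its second step. Gamt, this methylating step, measured 8.16, 8.18, 7.97, 8.16 and 8.12 in OMT and 9.82, 9.83, 9.79 and 9.86 in YMT. The arrays of each group lay close together, and the difference was -1.71 ± 0.066 (3.27-fold lower, adjusted p = 3.11e-07). Gatm, the step before it, measured 3.61, 4.13, 4.50, 4.42 and 4.35 in OMT and 5.28, 5.11, 5.20 and 5.12 in YMT. The difference was -0.98 ± 0.16 (adjusted p = 0.00194), with an OMT mean of 4.20, at the level of the array medians. Only 3 of the 5 OMT arrays had Gatm above the array median, so it was tested mainly because of its YMT level and its call is no independent support for a fall of the pathway.

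**Figure D3:**
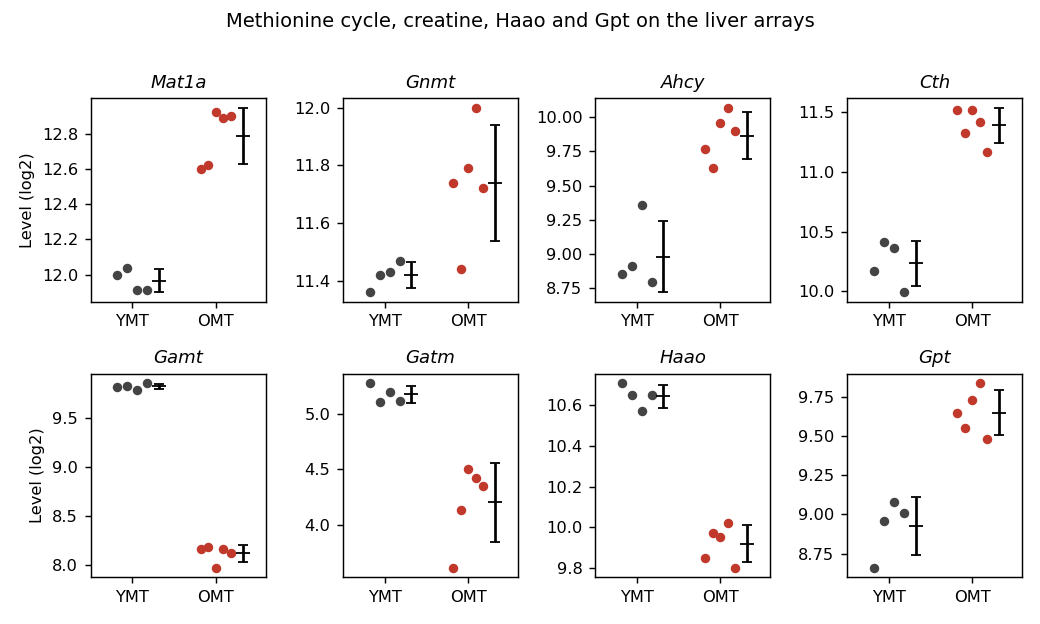
Levels of Mat1a, Gnmt, Ahcy, Cth, Gamt, Gatm, Haao and Gpt on each liver array (log2; axes differ between panels and do not start at 0); points are the 4 YMT and 5 OMT arrays in replicate order and bars the mean with its SD. Mat1a, Ahcy, Cth and Gpt are higher in OMT, Gamt, Gatm and Haao are lower with no overlap, and Gnmt overlaps through 1 OMT array.

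In the breakdown of aromatic amino acids 3 genes were lower, all of steps after the first. Of the 4 tryptophan and kynurenine genes, Kynu and Haao were lower (median -0.28). Haao, which makes the precursor of quinolinate on the way to NAD, measured 9.85, 9.97, 9.95, 10.02 and 9.80 in OMT and 10.71, 10.65, 10.57 and 10.65 in YMT. All OMT arrays lay below all YMT arrays, and the difference was -0.73 ± 0.069 (1.66-fold lower, adjusted p = 8.06e-05). Kynu, the kynureninase before it, was lower by 0.41 on the log2 scale (8.61 ± 0.11 against 9.02 ± 0.19, adjusted p = 0.0143). Tdo2, which opens the tryptophan ring, differed by 0.14 ± 0.070 (adjusted p = 0.188), and Kmo by -0.15 ± 0.072 (adjusted p = 0.17).

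Of the 4 tyrosine genes, Hgd, which opens the homogentisate ring, was lower (10.66 ± 0.12 against 11.06 ± 0.041, -0.41 ± 0.074, adjusted p = 0.0035), without overlap. The enzymes on either side differed by little: Tat, the first transaminase and a classical glucocorticoid target, by -0.050 ± 0.094 (adjusted p = 0.76), Hpd by 0.10 ± 0.060 (adjusted p = 0.263) and Fah by 0.0040 ± 0.063 (adjusted p = 0.974).

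In the remaining groups 1 of 8 tested genes was called. Gldc, the decarboxylase of the glycine cleavage system, was higher by 0.48 ± 0.14 (9.06 ± 0.20 against 8.59 ± 0.29, adjusted p = 0.0385). This call was lost without OMT replicate 1, 2 or 3 or YMT replicate 2 or 4 (0.34 to 0.49, adjusted p = 0.0929 at most). Amt, another protein of that system, differed by 0.28 ± 0.16 and the glyoxylate transaminase Agxt by -0.15 ± 0.13. Neither passed.

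Oat, which links ornithine to proline and glutamate, differed by 0.39 ± 0.18 (adjusted p = 0.169). Its OMT arrays, at 10.51, 10.46, 11.00, 11.14 and 11.08, were lowest on replicates 1 and 2, as those of Asl were. Its YMT arrays, at 10.13, 10.71, 10.73 and 10.23, were also widely spread (SD 0.31, against 0.33 in OMT). OMT replicates 1 and 2 lay within the YMT range of Oat, unlike those of Asl. Without OMT replicates 1 and 2 the difference was 0.62 for Oat (adjusted p = 0.027) and 0.49 for Amt (adjusted p = 0.0351), and both passed. For both genes these were the lowest 2 OMT arrays, so leaving them out was bound to raise the difference, and the passes are no independent support. In the same fit Gldc (0.395, adjusted p = 0.129), Glud1 (0.26, adjusted p = 0.0893), Glul (-0.26, adjusted p = 0.0588) and Got2 (0.27, adjusted p = 0.0599) lost their calls. The proline oxidase Prodh (0.095 ± 0.070) and Aldh4a1, which completes proline oxidation (-0.12 ± 0.087), did not pass, nor did the histidine enzymes Hal (-0.14 ± 0.11) and Uroc1 (-0.094 ± 0.11).

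The spread within a group was small for most genes. In liver the median SD was 0.143 in OMT and 0.115 in YMT, and 25 of 37 genes had the larger SD in OMT. In intestine the medians were 0.191 and 0.181, and Tat varied most, with an SD of 1.25 in OMT and 0.93 in YMT.

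In the small intestine 1 of 27 tested genes was higher and 1 lower in OMT, against 1.04% and 3.1% of all 13238 genes tested. The median difference was -0.0085, against -0.022 for all genes. Gpt was higher, as in liver. It measured 9.87, 9.48, 9.60, 9.61 and 9.46 in OMT and 8.62, 8.88, 9.0 and 8.66 in YMT. The groups did not overlap, and the difference was 0.81 ± 0.11 (1.76-fold higher, adjusted p = 0.00598). This call held under all alternatives tried in intestine.

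Otc was lower in intestine, at 9.49, 9.22, 9.81, 9.89 and 9.28 in OMT against 10.26, 10.21, 10.03 and 10.12 in YMT. The groups did not overlap, and the difference was -0.62 ± 0.14 (1.53-fold lower, adjusted p = 0.0417). The call was lost when OMT replicate 1, 2 or 5 or any YMT replicate was left out (-0.66 to -0.54, adjusted p = 0.116 at most).

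The other urea cycle genes did not pass in intestine. Cps1 measured 9.82, 9.56, 9.48, 10.05 and 9.96 in OMT and 10.61, 10.04, 9.87 and 10.47 in YMT, a difference of -0.47 ± 0.17 (adjusted p = 0.141). Nags measured 8.02, 7.86, 8.07, 8.31 and 8.00 in OMT and 8.16, 8.20, 8.10 and 8.12 in YMT (-0.093 ± 0.090, adjusted p = 0.566). For both, the OMT and YMT ranges overlapped. Slc25a15 measured 10.50, 10.43, 10.57, 10.38 and 10.46 in OMT and 10.20, 10.62, 10.51 and 10.44 in YMT (0.026 ± 0.090, adjusted p = 0.89).

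The later enzymes of the cycle lay above the array medians on all 9 intestinal arrays, Ass1 and Arg1 only by a little. The differences of Ass1 and Arg1 may thus be compressed. Asl measured 6.51, 6.13, 6.61, 6.64 and 6.51 in OMT and 6.95, 6.84, 6.47 and 6.81 in YMT (-0.29 ± 0.13, adjusted p = 0.209). Ass1 measured 5.41, 5.41, 5.41, 5.56 and 5.85 in OMT and 5.54, 5.10, 5.33 and 5.14 in YMT (0.25 ± 0.12, adjusted p = 0.25). Arg1 measured 5.29, 5.07, 5.04, 4.90 and 5.07 in OMT and 5.04, 5.23, 5.07 and 4.99 in YMT (-0.0085 ± 0.089, adjusted p = 0.966). None of these separated the groups.

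Several intestinal differences of larger size did not pass. Prodh was at 6.90 ± 0.26 and 7.53 ± 0.27 (-0.63 ± 0.16, adjusted p = 0.0515), and its adjusted p ranged from 0.00308 to 0.195 over the alternatives. Oat (-0.32 ± 0.097, adjusted p = 0.0896) and Gamt (-0.29 ± 0.096, adjusted p = 0.115) did not overlap between the groups. Tat measured 4.50, 4.26, 3.55, 5.76 and 6.67 in OMT and 6.59, 6.16, 6.65 and 8.28 in YMT (-1.97 ± 0.63, adjusted p = 0.10). OMT replicates 4 and 5 were the only OMT arrays above the array medians for Tat, so its difference has no settled size. Differences of Glud1 (0.38 ± 0.14), Got2 (-0.51 ± 0.22), Glul (-0.40 ± 0.22) and Aldh4a1 (0.61 ± 0.31) did not pass either. Second probe sets gave 0.029 for Got2 and 0.11 for Glul. That of Got2 lay near the array medians (4.52 in OMT, 4.49 in YMT) and that of Glul below them (3.45 and 3.34), so both say little.

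**Figure D4:**
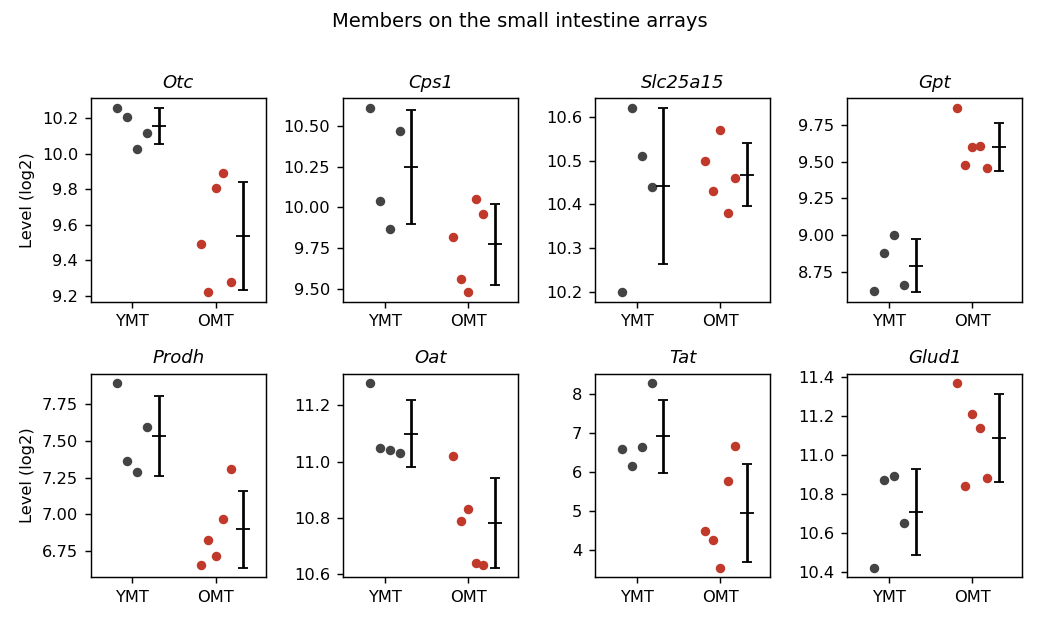
Levels of Otc, Cps1, Slc25a15, Gpt, Prodh, Oat, Tat and Glud1 on each small intestine array (log2; axes differ between panels and do not start at 0); points are the 4 YMT and 5 OMT arrays in replicate order and bars the mean with its SD. Gpt is higher and Otc lower in OMT without overlap, and the other 6 genes did not pass the test.

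The 10 genes below the filter in intestine were Hgd, Tdo2, Kynu, Agxt, Mat1a, Gnmt, Bhmt, Hal, Uroc1 and Gatm. Their intestinal group means lay between 2.48 and 4.42. Of these, Mat1a and Gnmt, called higher in liver, and Hgd, Kynu and Gatm, called lower there, were thus not measured well enough in intestine for a comparison.

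Whether donor age went with an unequal difference in the tissues was tested with all arrays taken as independent. The genes examined were the 27 measured in both tissues. For 10 of them the liver difference and the intestine difference were unequal at an adjusted p under 0.05, against 11.9% of all 11965 genes tested. Gamt differed most clearly, by -1.71 in liver and -0.29 in intestine (difference of the differences -1.42 ± 0.12, adjusted p = 7.37e-07). Nags (0.86 ± 0.12, adjusted p = 0.000143), Asl (1.17 ± 0.25, adjusted p = 0.00546) and Cth (0.92 ± 0.24, adjusted p = 0.0179) had the higher difference in liver: 0.77, 0.89 and 1.16 there, against -0.093, -0.29 and 0.24 in intestine. Haao had the lower one in liver, -0.73 against 0.066 (-0.79 ± 0.13, adjusted p = 0.000795).

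Prodh was the remaining call of the 6 that held under each alternative (0.73 ± 0.18, adjusted p = 0.0114). The calls of Gpt2 (0.46 ± 0.13), Cps1 (0.62 ± 0.19), Oat (0.71 ± 0.22) and Got2 (0.76 ± 0.24) had adjusted p-values of 0.0267 to 0.048. They were lost when 1 of the 18 arrays was left out for 3, 9, 12 and 15 choices of the array respectively, with adjusted p-values of 0.11 at most. For Cps1 these were OMT replicates 2 and 3 and YMT replicates 1 and 4 of intestine and OMT replicates 3 and 5 and YMT replicates 2, 3 and 4 of liver (0.50 to 0.63). For Gpt2 they were intestine YMT replicate 4, liver OMT replicate 5 and liver YMT replicate 1 (0.39 to 0.44). For Oat the call was lost without any array except intestine OMT replicate 1, intestine YMT replicate 3, liver OMT replicates 1 and 2 and liver YMT replicates 2 and 3 (0.60 to 0.73), and for Got2 without any except intestine OMT replicates 4 and 5 and intestine YMT replicate 3 (0.65 to 0.80).

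No unequal difference was called for the genes that passed in both tissues. The liver difference exceeded the intestine difference by -0.094 ± 0.19 for Otc (adjusted p = 0.794) and by -0.092 ± 0.15 for Gpt (adjusted p = 0.744). A p that misses the threshold does not show that the tissues responded alike. Ahcy, called in liver only, differed between the tissues by 0.77 without passing (adjusted p = 0.0774).

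**Figure D5:**
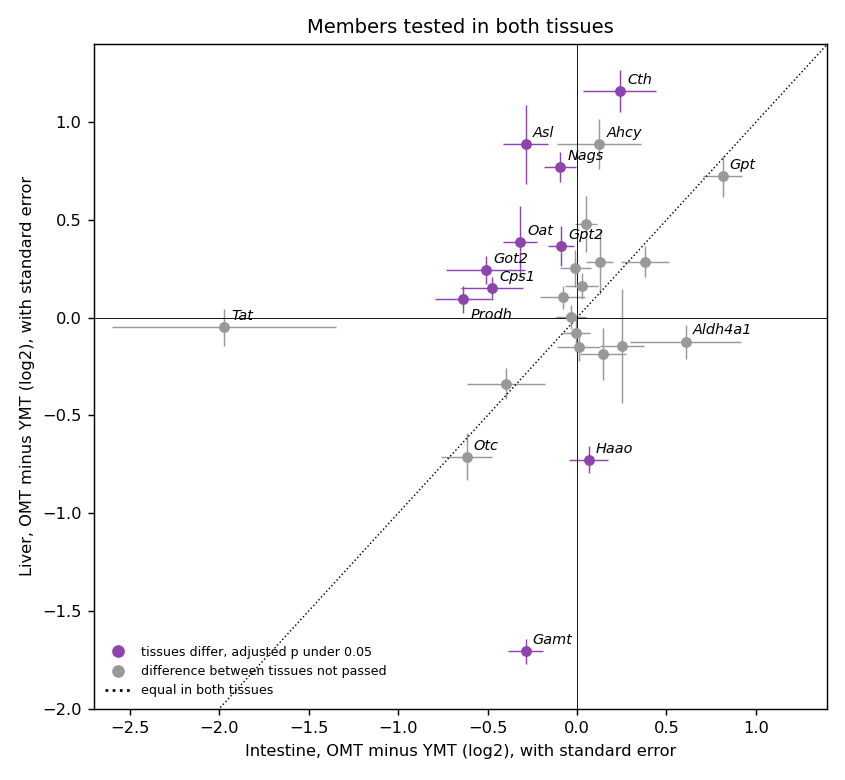
Differences between OMT and YMT in small intestine (horizontal) and liver (vertical) for the 27 genes tested in both, as log2 differences with standard errors; the dotted line marks equal differences. The 10 genes in purple differed between the tissues at an adjusted p under 0.05, and Otc and Gpt lie near the dotted line.

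Beyond these genes, 78 further genes of amino acid metabolism were tested in liver, of which 17 were higher and 12 lower (median 0.050). Of all genes tested in liver, 10.4% were higher and 8.78% lower (median -0.0050). Of 9 partners in sulfur amino acid metabolism, 4 were higher and 1 lower (median 0.35). They included Bhmt2, a methyltransferase for homocysteine (0.52 ± 0.093, adjusted p = 0.00328), and the cysteine dioxygenase Cdo1 (0.35 ± 0.072, adjusted p = 0.00689). The largest was Csad, which carries the product of Cdo1 toward taurine (1.20 ± 0.30, adjusted p = 0.0173). Without YMT replicate 3 its adjusted p was 0.0545. The rise of Mpst and the fall of Ethe1 were each lost in 5 of the 9 fits without 1 array.

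Among 17 branched-chain amino acid genes, 4 rose and 4 fell, including Bcat2, a branched-chain transaminase (0.66 ± 0.12), Ivd, a dehydrogenase of leucine breakdown (0.41 ± 0.082), and Ppm1k, the phosphatase that activates the branched-chain ketoacid dehydrogenase (-0.38 ± 0.089). The falls of Acad8, Hibadh and Pcca were lost in 6, 5 and 1 of the 9 fits without 1 array. Lysine breakdown had 2 of 5 genes higher, Aass (0.56 ± 0.096) and Dhtkd1 (0.93 ± 0.11). Of 7 further genes from tryptophan to NAD, Kyat3 (0.85 ± 0.16) and Afmid, the formamidase of the pathway (0.70 ± 0.12), were higher. Qprt, which acts on quinolinate downstream of Haao, was lower (-0.44 ± 0.079). Phenylalanine and tyrosine partners had 1 of 2 lower, Qdpr, which regenerates tetrahydrobiopterin (-0.42 ± 0.075). Histidine partners had 1 of 2 lower, Amdhd1 (-0.30 ± 0.091). Of 10 serine and glycine partners 2 were higher, Dmgdh (0.56 ± 0.078) and Shmt1 (0.31 ± 0.089). The calls of Amdhd1 (then -0.33 to -0.25) and Shmt1 (then 0.29 to 0.32) were lost in 6 and 4 of the 9 fits without 1 array.

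Of 8 partners of arginine, proline and citrulline, 2 were higher, Odc1, which turns ornithine into putrescine (1.0 ± 0.12, adjusted p = 0.000288), and Pycrl (0.22 ± 0.064). Asparagine metabolism split: asparagine synthetase (Asns) was higher by 1.81 ± 0.24 (adjusted p = 0.000552) and Aspg, which breaks asparagine down, was lower (-1.26 ± 0.079, adjusted p = 6.85e-06). Of 15 amino acid transporters 3 were lower: the cationic amino acid carrier Slc7a2 (-0.83 ± 0.074, adjusted p = 5.84e-05), the glutamine carrier Slc38a3 (-0.50 ± 0.072) and Slc3a1 (-0.69 ± 0.20). The calls of Pycrl (then 0.19 to 0.24) and Slc3a1 (then -0.68 to -0.55) were lost in 8 and 6 of the 9 fits without 1 array.

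In intestine, 2 of 73 such genes were higher and 4 lower (median -0.14), against 1.04% and 3.1% of all genes tested (median -0.022). Odc1 (0.79 ± 0.12, adjusted p = 0.00728) was higher, as in liver, and so was Sardh, a sarcosine dehydrogenase (0.68 ± 0.13, adjusted p = 0.0253). Ido1, the inducible enzyme of tryptophan breakdown, was lower (-1.89 ± 0.17, adjusted p = 0.00214). Ppm1k (-0.65 ± 0.11, adjusted p = 0.0125), the aspartate-glutamate carrier Slc25a13 (-0.63 ± 0.13, adjusted p = 0.032) and Mccc2, of leucine breakdown (-0.45 ± 0.11, adjusted p = 0.0447), were also lower. Without 1 array, the calls of Sardh (then 0.60 to 0.66), Slc25a13 (then -0.67 to -0.52) and Mccc2 (then -0.50 to -0.39) were lost in 3, 6 and 7 of 9 fits. Of 16 amino acid transporters 0 passed with limma, and 5 had an unadjusted p under 0.05.

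Of 14 regulators tested in liver, 3 were higher and 2 lower, against 10.4% and 8.78% of all genes tested there. The glucagon receptor Gcgr, whose signal drives amino acid breakdown, was higher by 0.23 ± 0.074 (adjusted p = 0.0473), and the hepatocyte factor Hnf4a by 0.55 ± 0.11 (adjusted p = 0.00683). Creb3l3, a hepatic factor of the fasting response, was higher by 0.41 ± 0.13 (adjusted p = 0.0424). The coactivator Ppargc1a was lower (-0.73 ± 0.11, adjusted p = 0.00127), and so was Sirt5, a mitochondrial deacylase that acts on Cps1 (-0.50 ± 0.11, adjusted p = 0.0113). Atf4, a factor of the amino acid response, differed by 0.32 ± 0.11 (adjusted p = 0.0571). Ppara (-0.15 ± 0.093), Klf15 (-0.073 ± 0.14), Cebpa (-0.074 ± 0.064) and the glucocorticoid receptor Nr3c1 (-0.085 ± 0.069) did not pass. In intestine, 1 of 13 regulators passed, Cebpa (0.55 ± 0.13, adjusted p = 0.0457). Of all genes tested in intestine, 1.04% were higher and 3.1% lower. The calls of Gcgr (then 0.21 to 0.25) and Creb3l3 (then 0.35 to 0.40) in liver and of Cebpa (then 0.51 to 0.61) in intestine were lost in 7, 6 and 7 of the 9 fits without 1 array. The other named regulators tested in intestine did not pass, with differences from -0.66 for Ppargc1a to 0.42 for Ppara and 0.66 for Creb3l3.

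Urea cycle enzymes are periportal in liver, so other genes of the lobule's zones are given beside them. Of all genes tested in liver, 8.78% were lower and 10.4% higher in OMT (median -0.0050). Of 10 periportal genes outside the urea cycle list, 7 were lower and 1 higher in OMT liver (median -0.55). The falls of Cdh1, Aldh1b1 and Ctsc were lost in 5, 6 and 5 of the 9 fits without 1 array. Cyp2f2 (-0.70 ± 0.13, adjusted p = 0.00376) and Hsd17b6 (-1.70 ± 0.35, adjusted p = 0.0067) were lower and Apoa4 was higher (2.17 ± 0.23, adjusted p = 0.000166). Of 12 pericentral genes, 4 were lower and 1 higher (median -0.041). The higher gene, Cyp2e1, lost its call in 2 of the 9 fits without 1 array. Among the lower ones were Rgn (-1.05 ± 0.18), Cyp2c29 (-0.99 ± 0.20) and Cyp1a2 (-1.88 ± 0.40). More genes of each zone were lower than higher, while of the urea cycle genes Nags and Asl were higher and Otc was lower, and the pericentral Glul was lower. The part of zone markers in the results was not tested.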

How the data were processed

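Total RNA (250 ng, column kit) was labelled with the Affymetrix WT PLUS reagents and hybridised, 1 array per sample, per the labels' protocols. The values deposited by the authors are log2 levels per probe set, for which the submitters' processing notes name RMA and Affymetrix Expression Console without versions. The log base was taken from the range of the values. Whether the tissues were normalized jointly is unstated, and levels were compared only within a tissue. RMA narrows differences of dim probe sets.

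Of 41345 probe sets 23521 had 1 symbol, and 1814 with several were not named. A gene entered a tissue's test if its probe set exceeded the array median on at least 4 of 9 arrays. OMT and YMT were compared with limma 3.58.1 (lmFit, eBayes; R 4.3.3), two-sided, with Benjamini-Hochberg adjustment over all genes tested. The unequal difference between tissues was fitted on all 18 arrays, taken as independent and with a shared spread. A sharing of recipients between liver and intestine was not modelled. Figures were drawn with matplotlib 3.10.9. The steps were tested on simulated arrays. No pair of arrays held identical values.

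The genes, lists and tests were chosen with earlier results of these data known. Array values are given for the urea cycle and for genes past the threshold of 0.05 with a log2 difference of at least 0.5, and from each further list up to 3 called genes of smallest p, with 8 regulators whatever their p. Alternatives were other level filters, eBayes settings, array weights, scalings, the mean over probe sets, a block for the replicate number, single arrays or OMT replicates 1 and 2 left out, and a threshold of 0.10.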

Additional observations from a re-analysis of the deposited data

Results flagged for a closer look

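Within single groups, 128 sets of 4 or 5 arrays were checked for an array set apart relative to the set's range. Of these, 10 held one, and chance marks about 1 in 20 where values are not tied. In liver, Gamt was lowest on OMT replicate 3 (7.97, the others 8.12 to 8.18), Kynu highest on YMT replicate 1 (9.30, the others 8.91 to 8.93) and Tat highest on OMT replicate 3 (12.44, the others 12.08 to 12.18). In intestine, Oat was highest on YMT replicate 1 (11.28, the others 11.03 to 11.05), Asl lowest on OMT replicate 2 (6.13, the others 6.51 to 6.64) and Amt highest on OMT replicate 1 (4.85, the others 4.68 to 4.72). The remaining arrays that stood apart lay near the intestinal array medians: Cbs on OMT replicate 2 (4.65) and YMT replicate 3 (4.77), Gldc on YMT replicate 1 (4.47) and Haao on YMT replicate 4 (5.02). For these YMT flags of Cbs, Gldc and Haao the other YMT arrays were equal, at 4.90, 4.54 and 5.09. The rule then marks any gap, however small.

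By limma's interaction test, 10 genes differed between OMT and YMT by unequal amounts in liver and intestine. Liver minus intestine was 0.86 for Nags, 0.62 for Cps1, 1.17 for Asl, 0.76 for Got2, 0.46 for Gpt2, -0.79 for Haao, 0.73 for Prodh, 0.71 for Oat, 0.92 for Cth and -1.42 for Gamt.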

How the results depend on the processing

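Over all alternatives, 1916 values were recomputed for single genes. Of these, 1779 kept their side of the threshold, 104 lost the call, 33 gained one and 0 reversed a call. Among the 1779, 42 changed direction without being called in either fit. In liver the 11 rises became 7 without a level filter, 7 after median centring, 7 with the replicate block and 7 to 10 with single arrays left out, and the 7 falls stayed at 6 or 7. In intestine the higher count of 1 became 2 in the fit of all 18 arrays. The lower count of 1 became 0 without a filter or without OMT replicates 1 and 2, 2 with a filter at the 75th percentile or median centring, 5 in the fit of all 18 arrays, 4 with array weights, 3 with the replicate block, 3 at a threshold of 0.10, and 0 to 2 with single arrays left out. Of the 10 genes unequal between tissues, 6 to 11 were counted with single arrays left out, 6 without intestine YMT replicate 4 or liver OMT replicate 5, and 10 with the replicate block, 8 of them shared. Over all liver genes the replicate block gave 740 higher and 719 lower, against 1388 and 1175. Same-numbered OMT and YMT arrays correlated between -0.178 and 0.0916 in liver and between -0.0612 and 0.32 in intestine. The numbers were thus not shown to pair OMT with YMT samples. Same-numbered liver and intestine arrays were not compared. Over all intestine genes, 138 higher and 410 lower became 365 and 1080 in the fit of all 18 arrays and 368 and 804 with array weights. In intestine 10 genes were below the filter, and Ass1 and Arg1 lay little above the array medians. In liver Ass1, Bhmt and Gatm lay near the array medians. This limits what can be said of all these genes. The causes were not tested.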
